A study of Homo sapiens with 45 samples.

Results

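Axon guidance ligands and receptors were followed through the differentiation of human spinal cord cells. The set holds the protein-coding genes whose GENCODE symbol is ROBO1 to ROBO4, SLIT1 to SLIT3, DCC, NEO1, UNC5A to UNC5D, NRP1 or NRP2, or begins with EPHA, EPHB, EFNA, EFNB, SEMA3 to SEMA6 or PLXNA to PLXND. These are 65 of the 58233 genes in the deposited tables, and 64 of them passed the filter on low counts that left 19437 genes for testing. The exception was ROBO4, a receptor of blood vessel endothelium, which had at most 5 reads in the 3 libraries of any day. The cells were made from H9, a widely used line of human embryonic stem cells. Before day 0 they had been taken to neuromesodermal progenitors, the tail bud cells that form spinal cord and paraxial mesoderm, in CHIR99021, bFGF, SB431542 and DMH1. On day 0, labelled the control, they were replated, with a ROCK inhibitor at first. From then on they were kept in 100 nM retinoic acid (RA), a patterning signal of the posterior neural tube, and 500 nM SAG, which activates Hedgehog signalling through Smoothened. Polyadenylated RNA was sequenced on days 0, 1, 2 and 4 to 15, with 3 libraries on each of these 15 days. Time, medium and replating therefore cannot be told apart between day 0 and the later days, and the study has 1 cell line. The labels call the replicates bioreps and say no more, so the p-values measure the spread between these samples only, which may be technical.

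Growth cones, the moving tips of axons, read secreted and membrane-bound cues through receptors on their surface. Netrins act through DCC, neogenin (NEO1) and the UNC5 receptors, Slits through Robo receptors, semaphorins through plexins with or without neuropilins, and ephrins through Eph receptor kinases. In the spinal cord these cues steer commissural axons to and across the floor plate at the ventral midline, and later direct motor axons out of the cord and into the limb. Several of the same genes also act outside axons, in boundaries between cell groups, in vessels and in migrating cells.

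Levels between days are given as CPM, counts scaled to the library total with TMM factors. Levels between genes are given in the deposited TPM, which also divide by gene length. Library totals ran from 22835854 to 39066286 counts, and the 3 libraries of a day are listed in the order of their replicate numbers. A log2 change is given ± its SE, a positive one being higher on the day named first, and a gene was called at a Benjamini-Hochberg adjusted p under 0.05 over all genes tested with edgeR's quasi-likelihood F test. All libraries are labelled neural progenitor cells. Of 6 progenitor markers, 4 reached 1 CPM on day 0, when PAX6 was at 0.215 CPM and HES5 at 0.0102 CPM, and 6 did on day 1. The summed level of 7 neuronal markers (TUBB3, STMN2, ELAVL3, ELAVL4, DCX, SNAP25 and SYT4) was 491 to 516 CPM on day 0 and 363 to 378 CPM on day 1. It reached 1491 to 1584 CPM on day 4 and 4519 to 5062 CPM on day 9, and stood at 2486 to 3021 CPM on day 15. The cells thus held neuronal RNA under the progenitor label. In bulk RNA, fewer cells of a type and less RNA per cell cannot be told apart.

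Most of the guidance genes were detected on every day, at levels that changed. On the TPM scale, 51 of the 65 reached a mean of 1 TPM on day 0 and 60 did on day 15. Averaged over all days the highest were NEO1 with 162 TPM, NRP2 with 133 TPM, PLXNB2 with 122 TPM, SEMA3C with 111 TPM and PLXNB1 with 102 TPM. The leading gene was NRP2 on days 0 and 1, NEO1 on days 2 to 9, SLIT1 on day 14, and SEMA3C on days 10 to 13 and 15. Summed over their members, Slit ligands stood at 76.2 TPM on day 0, 36.8 TPM on day 1, 217 TPM on day 8 and 396 TPM on day 14. Class 3 semaphorins, the secreted ones, had 101 TPM on day 0, 31.6 TPM on day 1, 175 TPM on day 8 and 222 TPM on day 14. The plexins as a group moved less, with 244 TPM on day 0 and 509 TPM on day 14. Of the 64 tested, 13 had their highest mean CPM on day 15 and 10 on day 0. Another 23 had their lowest on day 0 and 13 on day 1.

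**Figure D1:**
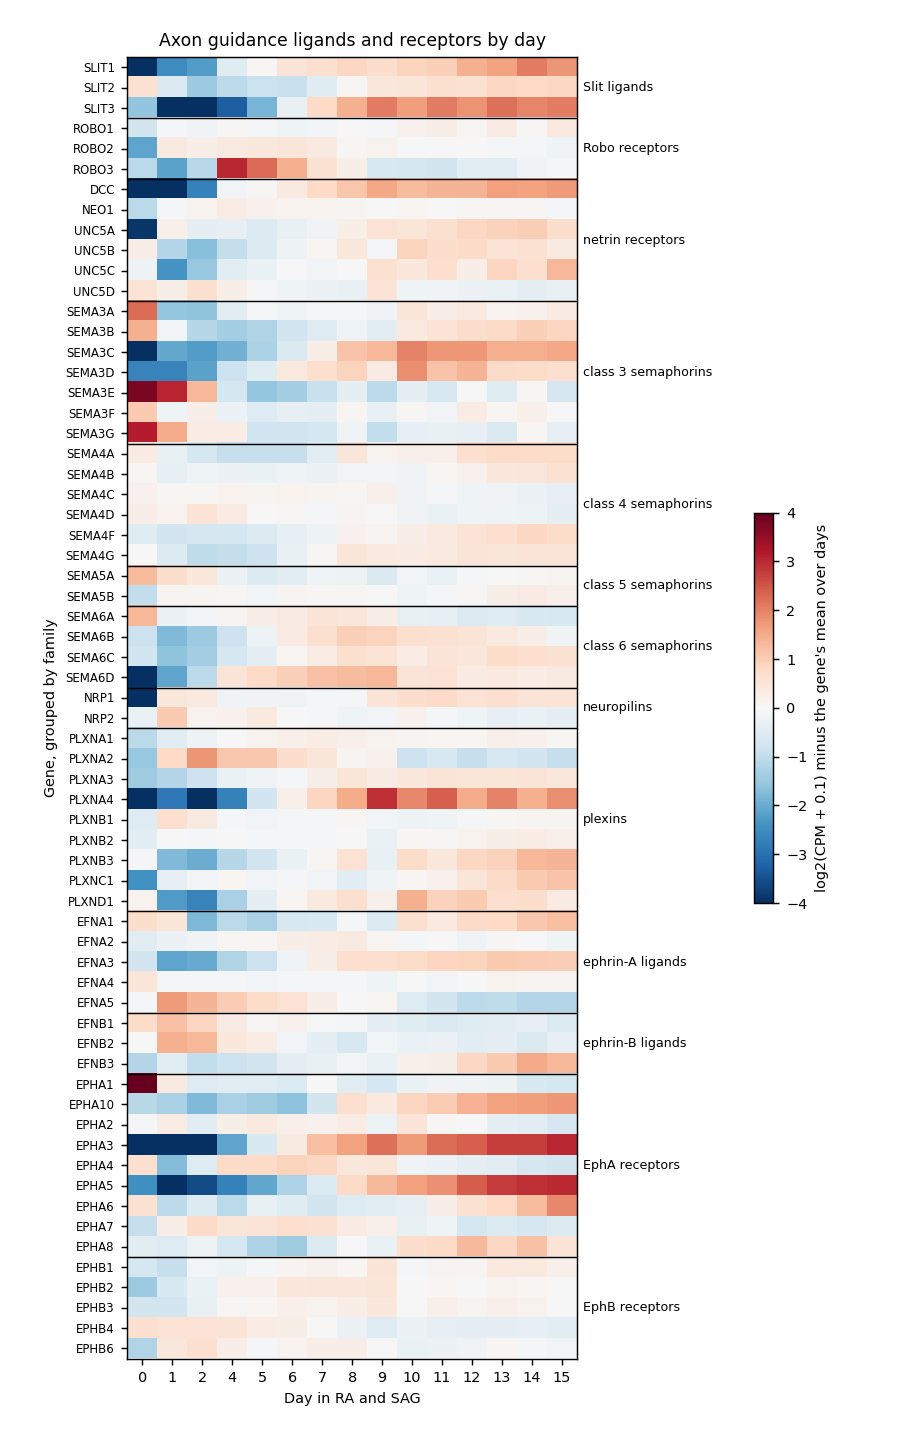
Mean level of each of the 64 tested guidance genes (rows, grouped by family) on each of the 15 days (columns), as log2(CPM + 0.1) minus the gene's own mean over days, n = 3 libraries a day; the colour scale stops at -4 and 4. EPHA1, SEMA3E and SEMA3G are darkest red on day 0, ROBO3 on day 4, and EPHA3 and EPHA5 on day 15.

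All 64 tested guidance genes differed between days at some point over the 15 days, where 91.5% of all genes tested did. From day 0 to day 1, 24 were called higher and 27 lower on day 1, against a background of 30.1% higher and 31.6% lower among all genes. With a change of at least 2-fold required, 17 were higher and 17 lower, against 10.6% and 10.4%. Day 4 had 26 higher and 16 lower than day 1 (background 24.4% and 22.8%), and at least 2-fold 11 higher and 5 lower (background 7.56% and 6.04%). Day 8 had 31 higher and 13 lower than day 4 (background 27.1% and 26.1%), and at least 2-fold 20 higher and 2 lower (background 10% and 3.43%). Day 10 had 18 higher and 14 lower than day 9 (background 15.9% and 13.7%), and 4 were higher by at least 2-fold, with no fall of that size, PLXNA4 and PLXNA2 lying just short (background 3.95% and 1.14%). Day 14 had 23 higher and 16 lower than day 8 (background 21.6% and 21.6%), and at least 2-fold 10 higher and 4 lower (background 6.61% and 3.29%).

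In share, the guidance genes thus lay above the background in the higher direction in each of these 5 comparisons, by the widest margin between days 4 and 8. In the lower direction their shares were 42.2%, 25%, 20.3%, 21.9% and 25%, against 31.6%, 22.8%, 26.1%, 13.7% and 21.6% of all genes. The shares of day 4 over day 1 and of day 14 over day 8 were thus near the background. That of day 8 over day 4 was below it. The size of the median change, without its sign, was 1.14 on the log2 scale from day 0 to day 1, against 0.44 for all genes. It was 0.64 against 0.3 from day 1 to day 4, 0.56 against 0.35 from day 4 to day 8, 0.34 against 0.2 from day 9 to day 10, and 0.35 against 0.25 from day 8 to day 14. With its sign, the median from day 4 to day 8 was 0.29, and that of all genes was 0. Days 1, 4 and 8 each enter more than 1 comparison, so the counts of neighbouring comparisons are not independent. Libraries of the days compared lay fully apart for 53, 45, 48, 36 and 43 of the 64 genes in the 5 comparisons in the same order, where the share of all genes tested with libraries fully apart was 67.8%, 54.2%, 58.6%, 39.3% and 52.3%. The share of all genes called in either direction, a separate quantity, was 61.7%, 47.2%, 53.2%, 29.6% and 43.2%.

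**Figure D2:**
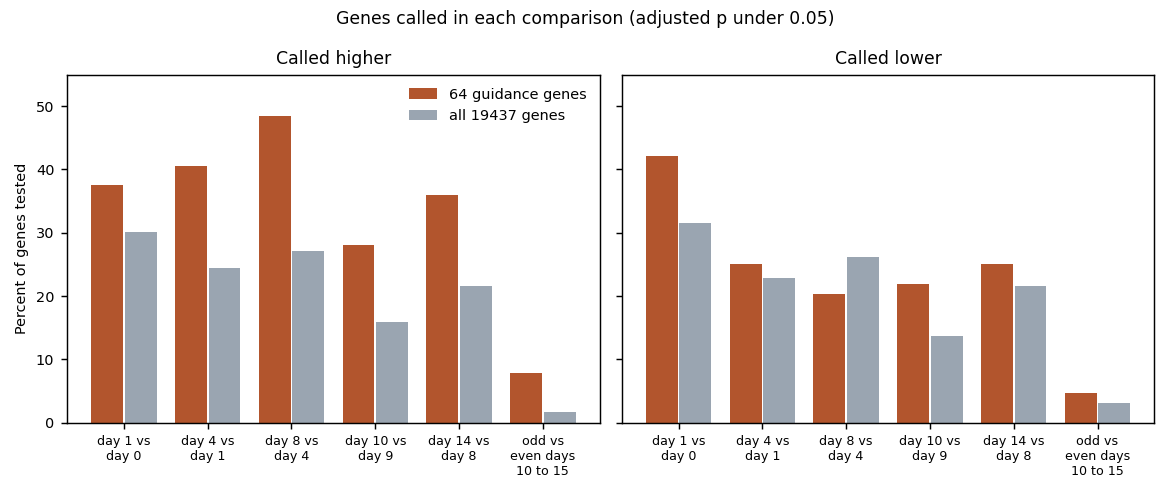
Percent of genes called higher (left) and lower (right) in each comparison, with the first-named day or days over the second, for the 64 tested guidance genes (brown) and all 19437 genes tested (grey). Brown bars stand above grey ones in each pair except the lower calls from day 4 to day 8.

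Slit ligands are secreted repellents made in vertebrates at the ventral midline and by motor neurons. All 3 were called in 4 of the 5 comparisons of days, where 43.2% to 61.7% of all genes were called in either direction. From day 9 to day 10 SLIT3 alone was called (background 29.6%). SLIT1 (chr10:96998038-97185920, GRCh38) was higher from the first day, with 33.4, 32.2 and 35.6 CPM on day 1, against 2.3, 2.48 and 2.57 CPM on day 0 (log2 change 3.78 ± 0.21, adjusted p = 2e-16). It had 135, 129 and 146 CPM on day 4, against 33.4, 32.2 and 35.6 CPM on day 1 (log2 change 2.02 ± 0.15, adjusted p = 7.7e-13). SLIT3 (chr5:168661733-169301129) went the other way at first, with 3.32, 2.76 and 2.34 CPM on day 1, against 19.6, 26 and 21.4 CPM on day 0 (log2 change -2.97 ± 0.19, adjusted p = 3.6e-15). In each of these pairs the libraries of both days lay apart. SLIT2 (chr4:20253260-20620561), the most abundant Slit on day 0, likewise fell, to a mean of 105 CPM on day 1, against 243 CPM on day 0, and was lowest on day 2.

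SLIT3 then had one of the largest later increases of the set. It had 183, 164 and 184 CPM on day 8, against 6.38, 6.47 and 7.08 CPM on day 4 (log2 change 4.73 ± 0.16, adjusted p = 7.9e-22), and no day 8 library came near a day 4 library. SLIT2 was also higher on day 8, with 163 CPM against 76.2 CPM on day 4 (log2 change 1.1 ± 0.15, adjusted p = 1e-07). SLIT1 had 782, 892 and 714 CPM on day 14, against 341, 343 and 345 CPM on day 8 (log2 change 1.21 ± 0.14, adjusted p = 1.4e-08), again with no overlap, and its mean of 796 CPM on day 14 was the highest of any guidance gene on the CPM scale. Its exons overlap those of the readthrough gene ARHGAP19-SLIT1 on the same strand, so reads could be shared between them. By day 15 the 3 Slits stood at 651 CPM for SLIT1, 283 CPM for SLIT2 and 276 CPM for SLIT3.

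The introns of SLIT2 and SLIT3 each carry a copy of microRNA 218, on the same strand as the host, which is shown because both hosts rose between days 4 and 8. SLIT3 also overlaps MIR585, which is not shown. The MIR218-1 hairpin lies in SLIT2 at chr4:20528275-20528384 and the MIR218-2 hairpin in SLIT3 at chr5:168768146-168768255 (RefSeq, GRCh38.p14). Both give the same mature product, a microRNA known in motor neurons of mice, printed with its seed (bases 2 to 8) in capitals.
hsa-miR-218-5p: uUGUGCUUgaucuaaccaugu
Libraries of polyadenylated RNA do not measure a mature microRNA, so no level is given for it.

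Robo receptors bind Slits. ROBO3, a divergent member that in mice keeps commissural axons from responding to Slits until they have crossed the midline, had a short peak on day 4. ROBO3 (chr11:124865386-124881470) had 102, 95.8 and 94.5 CPM on day 4, against 2.36, 2.59 and 2.86 CPM on day 1 (log2 change 5.24 ± 0.15, adjusted p = 5e-27). It then had 15.5, 13.7 and 13.3 CPM on day 8, against 102, 95.8 and 94.5 CPM on day 4 (log2 change -2.79 ± 0.12, adjusted p = 4.1e-21). Its mean on days 0, 1, 2, 4, 5, 6, 7 and 8 was 5.58, 2.6, 5.44, 97.6, 57.3, 31.8, 18.3 and 14.1 CPM, and from day 9 on it stayed between 7.19 and 11.5 CPM. Day 3 was not sampled, so the peak may lie anywhere between days 2 and 5.

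ROBO1 and ROBO2, the classic Slit receptors, had their largest step on day 1, and the changes called after it were smaller. ROBO2 had 56.4, 54.1 and 52.8 CPM on day 1, against 9.57, 9.9 and 9.41 CPM on day 0 (log2 change 2.5 ± 0.059, adjusted p = 1e-30), with no overlap, and then kept means of 37.2 to 58.9 CPM on all later days. ROBO1 averaged 121 ± 1.85 CPM on day 1, against 75.6 ± 10.7 CPM on day 0 (SD, n = 3 each; log2 change 0.68 ± 0.074, adjusted p = 3.3e-10), and 166 CPM on day 15. On the TPM scale ROBO3 was the highest Robo on day 4 with 62.2 TPM, while over all days ROBO1 averaged 56 TPM, ROBO2 27 TPM and ROBO3 16.4 TPM.

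Among netrin receptors, DCC, which mediates attraction to netrin-1, appeared between days 1 and 4. DCC (chr18:52340172-53535903) had 24.2, 27.9 and 29.2 CPM on day 4, against 1.06, 1.13 and 0.736 CPM on day 1 (log2 change 4.76 ± 0.21, adjusted p = 5.5e-20), with no overlap. On day 1 it had not yet passed the test against day 0 (adjusted p = 0.19), and it rose on, to 63.6 CPM on day 8, against 27.1 CPM on day 4 (log2 change 1.23 ± 0.13, adjusted p = 3.4e-10). NEO1, a netrin and RGM receptor, kept means between 372 and 471 CPM from day 2 on, though day 1 exceeded day 0 (371 against 185 CPM, log2 change 1 ± 0.041, adjusted p = 1.4e-22). Its highest and lowest daily means lay 1.35 apart on the log2 scale. UNC5D had the narrowest such range of the 6 netrin receptors, 1. An exon of DCC overlaps LINC01917 on the other strand, and whether counting used strand is not given in the sources used here.

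The UNC5 receptors, which turn netrin responses to repulsion, did not move together. UNC5A (chr5:176810477-176880898) had 3.52, 3.09 and 3.33 CPM on day 1, against 0.121, 0.0611 and 0.124 CPM on day 0 (log2 change 4.97 ± 0.29, adjusted p = 1.2e-17), with libraries well apart, although its level stayed low, at most 5.79 CPM on any day. UNC5B was lower on day 1, with 13.6 CPM against 37.6 CPM on day 0 (log2 change -1.47 ± 0.13, adjusted p = 3.6e-12), and had 62.4, 48.4 and 63.1 CPM on day 10, against 28.4, 31.2 and 27.9 CPM on day 9 (log2 change 0.99 ± 0.12, adjusted p = 9e-08). UNC5D (chr8:35235457-35796550) had 13.8, 13.7 and 15.9 CPM on day 8, against 18.5, 22.1 and 22.8 CPM on day 4 (log2 change -0.55 ± 0.14, adjusted p = 0.0014). It stood out on day 9, when it had 27.5, 22.8 and 29.1 CPM, against 13.8, 13.7 and 15.9 CPM on day 8, and then had 16, 16.3 and 15.8 CPM on day 10 (log2 change -0.72 ± 0.14, adjusted p = 0.00013 for day 10 over day 9). None of the library values of days 8 or 10 reached those of day 9. UNC5C was called lower on day 1 than on day 0, but its day 0 libraries were spread widely, with 0.63, 1.1 and 0.822 CPM on day 1, against 2.54, 8.9 and 0.96 CPM on day 0, and the days overlapped.

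**Figure D3:**
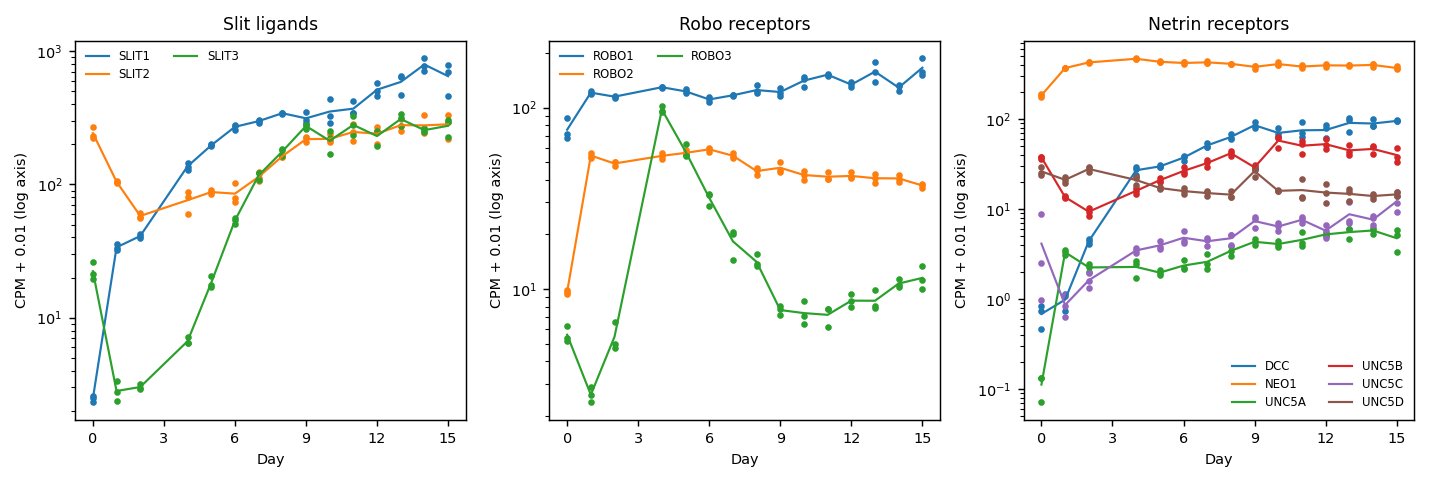
CPM of the Slit ligands, ROBO1 to ROBO3 and the netrin receptors by day, as CPM + 0.01 on a log axis; points are libraries and lines join the means of 3. ROBO3 peaks on day 4 while SLIT3 and DCC climb through day 9, and UNC5D lies higher on day 9 than on days 8 and 10.

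Class 3 semaphorins are secreted and mostly repel axons through neuropilins and plexins. On day 1, 5 of the 7 were called lower than on day 0 and 1 higher (background 31.6% lower and 30.1% higher). SEMA3A (chr7:83955777-84492724), which repels motor axons through NRP1, had 9.19, 7.5 and 7.4 CPM on day 1, against 117, 107 and 113 CPM on day 0 (log2 change -3.8 ± 0.15, adjusted p = 1.4e-21). SEMA3C (chr7:80742538-80922359) was the one that was higher, with 22.2, 22.4 and 17.5 CPM on day 1, against 3.79, 3.82 and 3.16 CPM on day 0 (log2 change 2.53 ± 0.23, adjusted p = 2.3e-11). SEMA3E (chr7:83363238-83649113), which binds PLXND1 without a neuropilin, followed later, with 0.921, 1.04 and 0.609 CPM on day 4, against 13.6, 13.1 and 11.9 CPM on day 1 (log2 change -3.93 ± 0.25, adjusted p = 2.9e-16). The libraries of both days lay apart in each case.

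Between days 1 and 4, SEMA3G and SEMA3B also fell. SEMA3G had 0.73, 0.633 and 0.417 CPM on day 4, against 1.39, 1.46 and 1.64 CPM on day 1 (log2 change -1.33 ± 0.3, adjusted p = 0.00033), and SEMA3B had 2.67, 1.99 and 1.63 CPM on day 4, against 5.04, 5.15 and 5.32 CPM on day 1 (log2 change -1.29 ± 0.21, adjusted p = 1.9e-06), and neither pair of days overlapped. From day 4 to day 8, 5 of the 7 were called, all of them higher (background 27.1% higher and 26.1% lower). SEMA3C again changed most, with 187, 188 and 191 CPM on day 8, against 24.5, 24.8 and 18.9 CPM on day 4 (log2 change 3.06 ± 0.18, adjusted p = 1e-15). SEMA3A passed the test as well but stayed far under its day 0 level, with 23 CPM on day 8, against 17.5 CPM on day 4 (log2 change 0.39 ± 0.14, adjusted p = 0.018).

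From day 9 to day 10, 5 of the 7 were called, again all higher (background 15.9% higher and 13.7% lower). SEMA3D had 33.8, 25.1 and 43.8 CPM on day 10, against 14.2, 10.7 and 10.4 CPM on day 9 (log2 change 1.54 ± 0.17, adjusted p = 1.5e-08). SEMA3B had 8.3, 7.08 and 6.69 CPM on day 10, against 3.74, 4.71 and 3.96 CPM on day 9 (log2 change 0.83 ± 0.18, adjusted p = 0.00043). SEMA3C reached its highest mean on day 10, 342 ± 53.4 CPM (SD, n = 3), and SEMA3D did so too, with 34.2 ± 9.35 CPM. The day 10 libraries lay above those of day 9 in both SEMA3D and SEMA3B.

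Among the membrane-bound semaphorins, class 6, which bind plexins of the A type, moved most. SEMA6D (chr15:47184101-47774223), which binds PLXNA1, was close to absent on day 0 and rose in steps, with 8.89, 9.23 and 9.04 CPM on day 1, against 0.969, 0.581 and 1.08 CPM on day 0 (log2 change 3.36 ± 0.26, adjusted p = 3.2e-13) and 51.8, 61.9 and 56.2 CPM on day 4, against 8.89, 9.23 and 9.04 CPM on day 1 (log2 change 2.64 ± 0.16, adjusted p = 1.7e-15). It reached 100 CPM on day 9 and then dropped, with 55.7, 66.2 and 47.8 CPM on day 10, against 106, 91.4 and 102 CPM on day 9 (log2 change -0.82 ± 0.14, adjusted p = 2.2e-05). SEMA6D kept the lower level, with 46.2, 56 and 42.4 CPM on day 14, against 92.6, 91.1 and 99.4 CPM on day 8 (log2 change -0.97 ± 0.14, adjusted p = 5.1e-07). The libraries did not overlap at any of these 4 steps.

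SEMA6A (chr5:116443616-116574934), a ligand of PLXNA2 and PLXNA4, had 50.9, 61.6 and 49.7 CPM on day 14, against 114, 111 and 119 CPM on day 8 (log2 change -1.09 ± 0.11, adjusted p = 1.4e-10), with no overlap, and its highest mean was 211 CPM on day 0. SEMA6B was likewise called lower on day 14, with 72.9 CPM against 117 CPM on day 8 (log2 change -0.69 ± 0.082, adjusted p = 7.3e-09), and SEMA6C did not pass that test (log2 change 0.05). All 4 class 6 genes had been called higher on day 8 than on day 4 (background 27.1%). SEMA5A (chr5:9035026-9546075), a transmembrane semaphorin with thrombospondin repeats, had 32.5, 41.3 and 38.6 CPM on day 4, against 70.5, 71.7 and 74.1 CPM on day 1 (log2 change -0.95 ± 0.075, adjusted p = 1.2e-13), while its relative SEMA5B kept means of 69 to 98.5 CPM from day 1 on. The 6 class 4 genes, ligands mainly of B-type plexins, had narrower ranges than the 4 class 6 genes: their highest and lowest daily means lay 0.52 apart on the log2 scale in SEMA4C and 1.77 in SEMA4A, with the other 4 between these, against 1.98 in SEMA6A, the narrowest of class 6. On day 1, 4 of the 6 were called lower than on day 0 (background 31.6%).

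Neuropilins are co-receptors that bind class 3 semaphorins and VEGF. NRP1 (chr10:33177492-33336262) had the largest increase of the set on day 1, with 68.7, 65.7 and 69.9 CPM on day 1, against 2.21, 1.99 and 2.04 CPM on day 0 (log2 change 5.03 ± 0.12, adjusted p = 7e-30). All 3 day 1 libraries exceeded the day 0 ones by a wide margin. NRP1 was then called lower on day 4 than on day 1 (43.6 against 68.1 CPM) and was highest on day 11, with 83.8 CPM. NRP2, at 578 CPM on day 1 against 230.4 CPM on day 0, was called higher too (log2 change 1.33 ± 0.096, adjusted p = 2.8e-14). An exon of NRP1 overlaps AL121748.2 on the other strand.

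Plexins are the signalling receptors for semaphorins, and on day 1, 7 of the 9 were called higher and 2 lower (background 30.1% and 31.6%). PLXNA4 (chr7:132123332-132648688), which with NRP1 carries the SEMA3A signal, had 1.56, 1.76 and 1.51 CPM on day 1, against 0.151, 0.0306 and 0.186 CPM on day 0 (log2 change 3.68 ± 0.52, adjusted p = 2.1e-07). PLXND1 (chr3:129555175-129606818) had 14.1, 14.8 and 15.9 CPM on day 1, against 80.7, 79.7 and 81.7 CPM on day 0 (log2 change -2.44 ± 0.21, adjusted p = 6.8e-12). PLXNB3 had 0.299, 0.432 and 0.173 CPM on day 1, against 1.3, 0.978 and 1.42 CPM on day 0 (log2 change -1.98 ± 0.27, adjusted p = 6.4e-08). In all 3 the libraries of both days lay apart. PLXNB3 shares same-strand exons with SRPK3, and its level was at most 3.39 CPM.

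PLXNA4 and PLXNA2 then ran against each other. PLXNA4 had 34.8, 30.6 and 37.3 CPM on day 8, against 1.75, 1.54 and 2.08 CPM on day 4 (log2 change 4.24 ± 0.2, adjusted p = 3e-18). PLXNA2 (chr1:208022242-208244320), highest on day 2 with 574 CPM, had 175, 174 and 195 CPM on day 8, against 332, 348 and 394 CPM on day 4 (log2 change -0.98 ± 0.083, adjusted p = 1.7e-12). Neither gene had overlapping libraries between these days. From day 9 to day 10 both fell: PLXNA4 had 49.7, 50.1 and 41.1 CPM on day 10, against 99.3, 87.5 and 94.5 CPM on day 9 (log2 change -1 ± 0.14, adjusted p = 1.7e-06) and PLXNA2 had 86.7, 110.3 and 90.9 CPM on day 10, against 194, 191 and 184 CPM on day 9 (log2 change -0.98 ± 0.084, adjusted p = 6.6e-11). PLXNA2 remained lower later, with 96.3, 105 and 95.7 CPM on day 14, against 175, 174 and 195 CPM on day 8 (log2 change -0.87 ± 0.084, adjusted p = 7.3e-11), while PLXNA4 on day 14 did not pass the test against day 8 (log2 change -0.05 ± 0.14). The mean of PLXNA4 was 34.3 CPM on day 8, 93.8 CPM on day 9 and 47 CPM on day 10, so day 10 lay above day 8. Day 9 is odd and day 10 even, and of the guidance genes PLXNA4 differed most between odd and even late days, as given below.

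PLXND1 moved up where these fell, with 214, 147 and 225 CPM on day 10, against 84.7, 84.6 and 83 CPM on day 9 (log2 change 1.22 ± 0.18, adjusted p = 5.8e-06), its highest day, and PLXNB3 had 2.5, 1.85 and 2.14 CPM on day 10, against 1.09, 0.802 and 1.17 CPM on day 9 (log2 change 1.09 ± 0.21, adjusted p = 1e-04). The day 10 libraries were all above those of day 9, though those of PLXND1 differed among themselves more than on day 9. PLXNC1, a receptor for the semaphorin SEMA7A, had 36.2, 34.2 and 37 CPM on day 14, against 12.7, 11.3 and 13.5 CPM on day 8 (log2 change 1.52 ± 0.081, adjusted p = 4.1e-18), with no overlap, and its exons overlap CEP83 on the other strand. PLXNA1, PLXNA3, PLXNB1 and PLXNB2 had log2 changes of less than 1 in size in each of the 4 comparisons after day 1, and PLXNB2 had the narrowest range of the 9, 0.74 on the log2 scale between its highest and lowest daily mean.

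**Figure D4:**
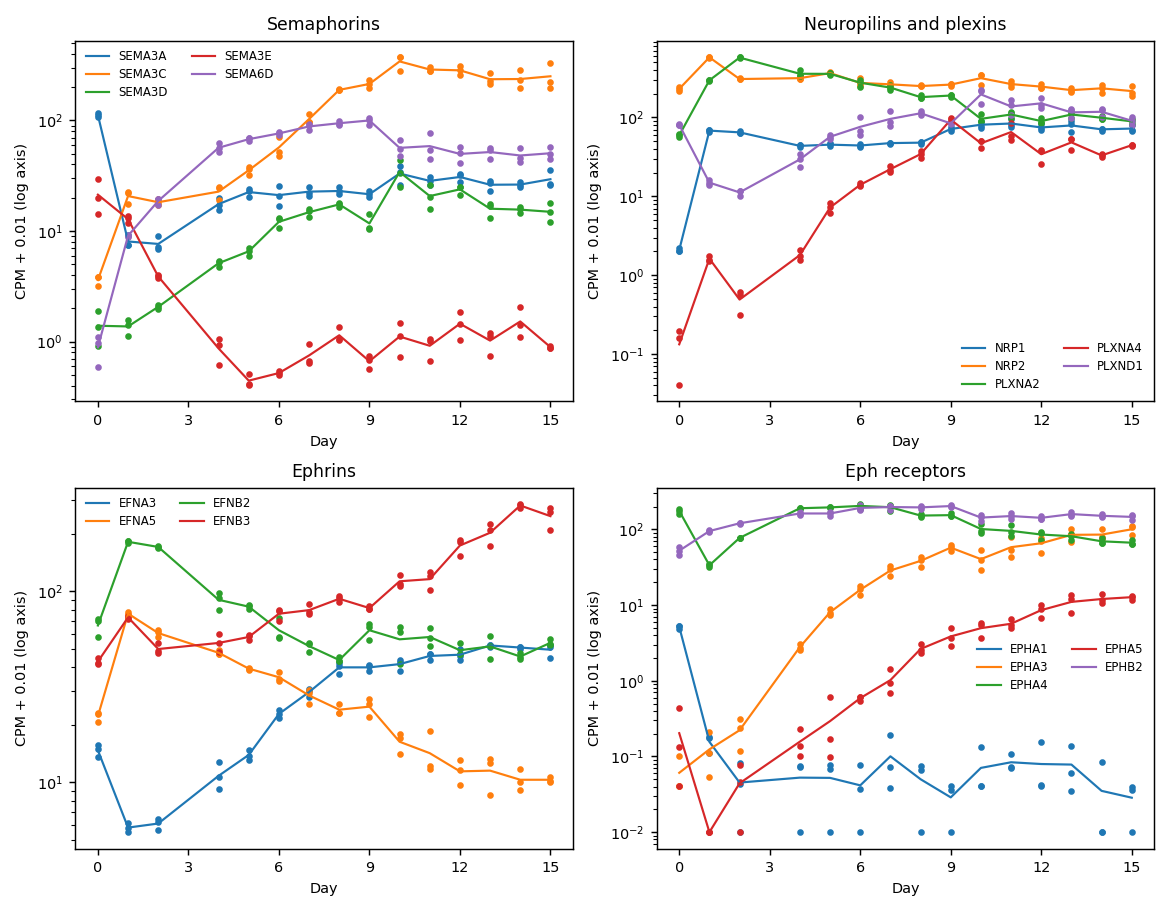
CPM + 0.01 on a log axis by day for selected semaphorins, neuropilins and plexins, ephrins and Eph receptors; points are libraries and lines join the means of 3. SEMA3C and PLXNA4 climb while SEMA3E falls by day 5, EFNA5 and EFNB3 cross over, and EPHA3 and EPHA5 climb while EPHA4 declines after day 9.

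Ephrin-A ligands are tethered to the membrane by a lipid anchor, and ephrin-B ligands span it. All 3 ephrin-B genes were called higher on day 1 than on day 0 (background 30.1%) and lower on day 4 than on day 1 (background 22.8%). EFNB2 (chr13:106489731-106535662) had 98.1, 92.9 and 80.1 CPM on day 4, against 183, 183 and 180.2 CPM on day 1 (log2 change -1.01 ± 0.11, adjusted p = 2.1e-09) and 43, 45.1 and 43 CPM on day 8, against 98.1, 92.9 and 80.1 CPM on day 4 (log2 change -1.05 ± 0.12, adjusted p = 1.4e-09), with no overlap at either step. EFNB3 (chr17:7705202-7711378), the ephrin of the spinal cord midline in mice, went on to rise, with 275, 286 and 284 CPM on day 14, against 94.6, 88 and 91.9 CPM on day 8 (log2 change 1.62 ± 0.091, adjusted p = 7.7e-17). Its day 14 libraries were all far above those of day 8.

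EFNA5 (chr5:107376889-107670895) was lower on the later day in all 4 comparisons after day 1. It had 23.1, 23.1 and 25.7 CPM on day 8, against 46.9, 49.2 and 47 CPM on day 4 (log2 change -0.99 ± 0.12, adjusted p = 1.6e-08), then 17, 17.8 and 14.1 CPM on day 10, against 25.6, 21.9 and 27.3 CPM on day 9 (log2 change -0.61 ± 0.13, adjusted p = 0.00035), and 10, 11.8 and 9.07 CPM on day 14, against 23.1, 23.1 and 25.7 CPM on day 8 (log2 change -1.22 ± 0.13, adjusted p = 1.3e-09). No pair overlapped. EFNA1, which was measured by few reads, had 0.286, 0.362 and 0.609 CPM on day 4, against 1.36, 1.46 and 1.43 CPM on day 1 (log2 change -1.73 ± 0.26, adjusted p = 4.4e-07), 1.62, 1.67 and 1.54 CPM on day 10, against 0.59, 0.647 and 0.736 CPM on day 9 (log2 change 1.29 ± 0.23, adjusted p = 3.1e-05) and 1.76, 2.01 and 2.87 CPM on day 14, against 0.895, 1.1 and 0.828 CPM on day 8 (log2 change 1.23 ± 0.21, adjusted p = 7.5e-06), so it fell early and rose late.

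EFNA3 rose to 40 CPM on day 8, against 10.8 CPM on day 4 (log2 change 1.87 ± 0.08, adjusted p = 3.2e-21). EFNA3 and EFNA4 share same-strand exons with the readthrough gene AL691442.1, so their levels are uncertain. On the TPM scale the leading ephrin was EFNB1 on day 1, with 98.6 TPM, and EFNB3 on day 14, with 163 TPM. EFNA2 changed least apart from EFNA4, with 0.81 and 0.65 on the log2 scale between highest and lowest daily means.

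EphA receptors differed widely in their ranges. EPHA3 spanned 10.95 on the log2 scale between its highest and lowest daily means, with the lowest mean resting on 5 reads in the 3 day 0 libraries, while EPHA2 spanned 1.22 and EPHA7 1.69. EPHA1 (chr7:143390289-143408892), found mainly in epithelia, had 0.0995, 0.166 and 0.173 CPM on day 1, against 5.27, 5.35 and 4.83 CPM on day 0 (log2 change -5.12 ± 0.48, adjusted p = 7.3e-12), and was under 0.1 CPM on average on every day from day 2 on. EPHA4 (chr2:221418027-221574202), which binds ephrins of both classes and in mice and chicks steers limb-innervating motor axons dorsally, had 32.2, 35 and 33.3 CPM on day 1, against 176, 188 and 161 CPM on day 0 (log2 change -2.39 ± 0.1, adjusted p = 1.3e-20) and then 184, 194 and 192 CPM on day 4, against 32.2, 35 and 33.3 CPM on day 1 (log2 change 2.5 ± 0.1, adjusted p = 9.3e-21). Day 1 was therefore a trough, with no library overlapping on either side. An exon of EPHA1 overlaps ZYX on the other strand, and one of EPHA4 overlaps AC079834.2.

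EPHA3 and EPHA5 were near 0 at first and highest on day 15. EPHA3 (chr3:89107524-89482134), found on axons of the medial motor column in mice, had 2.57, 3.07 and 2.69 CPM on day 4, against 0.199, 0.0996 and 0.0433 CPM on day 1 (log2 change 4.48 ± 0.7, adjusted p = 2.3e-06) and 39, 32.1 and 43.6 CPM on day 8, against 2.57, 3.07 and 2.69 CPM on day 4 (log2 change 3.79 ± 0.27, adjusted p = 1.2e-13), and reached 100.2 CPM on day 15. In between it averaged 40.4 ± 12 CPM on day 10, against 57.3 ± 5.32 CPM on day 9 (SD, n = 3 each), a step that did not pass the test (log2 change -0.5 ± 0.2, adjusted p = 0.051) and whose libraries overlapped. EPHA5 (chr4:65319563-65670495) had 0 reads in the 3 day 1 libraries. It had 2.57, 2.29 and 3.02 CPM on day 8, against 0.222, 0.0904 and 0.128 CPM on day 4 (log2 change 4.06 ± 0.48, adjusted p = 9.7e-09) and 11.5, 14 and 10.7 CPM on day 14, against 2.57, 2.29 and 3.02 CPM on day 8 (log2 change 2.2 ± 0.26, adjusted p = 1.6e-08). EPHA10, which lacks kinase activity, had 1.1, 1.21 and 0.923 CPM on day 8, against 0.159, 0.136 and 0.32 CPM on day 4 (log2 change 2.34 ± 0.4, adjusted p = 4.3e-06). Apart from the EPHA3 step from day 9 to day 10, the days did not overlap in any of these pairs.

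Of the 9 EphA genes, 5 were called higher and 3 lower on day 14 than on day 8 (background 21.6% each way). EPHA6 had 1.73, 1.49 and 1.41 CPM on day 14, against 0.298, 0.395 and 0.446 CPM on day 8 (log2 change 2.02 ± 0.31, adjusted p = 1.5e-06). EPHA4 had 96.2, 118 and 89.5 CPM on day 10, against 152, 148 and 162 CPM on day 9 (log2 change -0.61 ± 0.096, adjusted p = 9.2e-06) and 66.1, 76.8 and 65.7 CPM on day 14, against 152, 145 and 159 CPM on day 8 (log2 change -1.13 ± 0.097, adjusted p = 7.9e-12). EPHA7 had 15.7, 16.6 and 15.3 CPM on day 14, against 32, 30.8 and 34.5 CPM on day 8 (log2 change -1.03 ± 0.1, adjusted p = 4.8e-11). All day 14 libraries of EPHA4 and EPHA7 lay below those of day 8, and those of EPHA6 above.

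EphB receptors bind ephrin-B ligands and were steadier. EPHB4 (chr7:100802565-100827521), the partner of EFNB2 in vessels, had 73, 68 and 71.9 CPM on day 8, against 122, 109 and 125 CPM on day 4 (log2 change -0.74 ± 0.089, adjusted p = 5.1e-09), with no overlap. EPHB1, EPHB2 and EPHB3 were all highest on day 9, EPHB2 with 203 CPM, and all 3 were called lower on day 10 (background 13.7%). EPHB2 had 145, 155 and 128 CPM on day 10, against 208, 199.7 and 202 CPM on day 9 (log2 change -0.51 ± 0.077, adjusted p = 3.2e-06). EPHB6, which has no kinase activity, was highest on day 2, with 21.6 CPM. Exons of EPHB4 overlap SLC12A9 and those of EPHB1 overlap KY, in both cases on the other strand.

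RefSeq promoters (250 bases before to 50 after a start, GRCh38.p14) matched 57 of the 65 genes by symbol. Those of SLIT3, PLXNA4, EPHA3 and EPHA5, which rose most between days 4 and 8, and of ROBO3, which fell most, are shown with any matches to 3 short motifs in capitals.
SLIT3 promoter, chr5:169301090-169301389, minus strand: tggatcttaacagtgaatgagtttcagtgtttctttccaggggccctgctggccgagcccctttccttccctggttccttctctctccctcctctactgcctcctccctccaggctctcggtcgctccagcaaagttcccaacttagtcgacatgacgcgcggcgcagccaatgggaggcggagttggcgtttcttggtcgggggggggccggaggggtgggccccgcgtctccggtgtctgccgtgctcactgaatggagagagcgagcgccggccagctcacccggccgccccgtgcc
PLXNA4 promoter, chr7:132576421-132576720, minus strand: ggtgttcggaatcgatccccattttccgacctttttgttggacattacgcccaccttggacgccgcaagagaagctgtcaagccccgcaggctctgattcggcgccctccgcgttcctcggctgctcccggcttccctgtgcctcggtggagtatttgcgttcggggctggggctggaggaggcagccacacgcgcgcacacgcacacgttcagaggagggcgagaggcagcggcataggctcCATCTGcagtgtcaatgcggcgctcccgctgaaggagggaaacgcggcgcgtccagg
EPHA3 promoter, chr3:89107371-89107670, plus strand: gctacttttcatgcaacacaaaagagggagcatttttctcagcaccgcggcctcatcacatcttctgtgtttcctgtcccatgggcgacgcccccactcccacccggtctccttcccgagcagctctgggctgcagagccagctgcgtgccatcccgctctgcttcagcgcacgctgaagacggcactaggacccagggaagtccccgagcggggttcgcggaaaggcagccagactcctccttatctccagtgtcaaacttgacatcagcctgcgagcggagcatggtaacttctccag
EPHA5 promoter, chr4:65670440-65670739, minus strand: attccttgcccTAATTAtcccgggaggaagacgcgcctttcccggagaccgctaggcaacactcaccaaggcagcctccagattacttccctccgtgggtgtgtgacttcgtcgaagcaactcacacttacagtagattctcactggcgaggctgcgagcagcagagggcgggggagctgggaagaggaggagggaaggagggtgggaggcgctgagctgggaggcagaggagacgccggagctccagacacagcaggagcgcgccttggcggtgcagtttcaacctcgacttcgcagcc
ROBO3 promoter, chr11:124865182-124865481, plus strand: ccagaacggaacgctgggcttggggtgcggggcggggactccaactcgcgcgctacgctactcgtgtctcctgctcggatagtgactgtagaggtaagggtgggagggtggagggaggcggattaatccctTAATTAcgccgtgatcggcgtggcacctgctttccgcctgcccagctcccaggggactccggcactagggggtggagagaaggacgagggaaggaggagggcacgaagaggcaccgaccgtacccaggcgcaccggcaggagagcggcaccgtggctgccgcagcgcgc
The motifs, searched on both strands, were CAGATG, an E-box of the type bound by NEUROG and NEUROD factors, TAATTA, a homeodomain core, and GGGTGGTC, a GLI core. None of these 5 sequences holds more than 1 of the motifs. CAGATG was in 9.2% of 87 promoters of guidance genes and in 14.7% of all 35116 promoters. TAATTA was in 2.3% and 4.84%, and GGGTGGTC in 2.3% and 0.974%. PLXNA4 has CAGATG, EPHA5 and ROBO3 have TAATTA, and SLIT3 and EPHA3 have none of the 3 in these windows. EPHA5 and ROBO3 have further RefSeq starts. The PLXNA4 start lies inside the GENCODE gene. These matches are a description of the letters.

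Summed marker levels of several cell types differed between days 9 and 10, beside the changes of guidance genes over that step. The 7 neuronal markers, all of which exceeded 1 CPM on both days, summed to 2547 to 3688 CPM on day 10, against 4519 to 5062 CPM on day 9. PLXNA4, PLXNA2, SEMA6D, UNC5D, EPHA4 and EFNA5 were lower over the same step, which also goes from an odd to an even day. From day 4 to day 8, when the neuronal sum rose to 3806 to 4234 CPM, these genes did not move together. PLXNA4 and SEMA6D were called higher on day 8. PLXNA2, UNC5D and EFNA5 were called lower, and EPHA4 had a mean of 152 CPM, against 190 CPM on day 4. Of 8 motor neuron markers, all exceeded 1 CPM on both days and summed to 99.6 to 139 CPM on day 10, against 114 to 133 CPM on day 9, but the members went opposite ways. MNX1, ISL1, ISL2 and LHX3 had lower means on day 10, ISL2 with 5.88 CPM on day 10, against 12.5 CPM on day 9, and CHAT, SLC18A3, SLC5A7 and PRPH higher ones, SLC5A7 with 24.9 CPM on day 10, against 11.3 CPM on day 9. Progenitor markers summed to 2181 to 2418 CPM on day 10, against 2991 to 3086 CPM on day 9, with all 6 over 1 CPM on both days. Most of this sum was NES, with 1909 CPM on day 10, against 2565 CPM on day 9. SOX2 alone had a higher mean on day 10, 213 CPM against 194 CPM. Floor plate markers summed to 562 to 805 CPM on day 10, against 371 to 502 CPM on day 9. Most of it was SPON1 (635 against 406 CPM), which had 779 CPM on day 1, when FOXA2 and SHH were under 1 CPM. SHH had 46.6 CPM on day 10, against 21 CPM on day 9, and FOXA2 9.75 against 3.28 CPM. Astroglial markers summed to 79.3 to 103 CPM on day 10, against 61.1 to 67.1 CPM on day 9. FERD3L, GFAP, AQP4 and S100B were under 1 CPM on both days. Of 8 endothelial markers, 4 reached 1 CPM on day 10 and 2 on day 9, with sums of 12.7 to 15.4 CPM on day 10 and 11.9 to 13.2 CPM on day 9 and PECAM1 at 0.0604 CPM on day 10 and 0.0463 CPM on day 9. Mesoderm markers summed to 9.73 to 16.8 CPM on day 10, against 6.78 to 7.94 CPM on day 9, mostly FOXC2 (9.79 against 2.48 CPM), with MEOX2 at 0 on both days. The part of RNA of any of these cell types in the changes of guidance genes was not tested.

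The late rises of SLIT1, EFNB3, PLXNC1, EPHA5 and EPHA6 came as floor plate, astroglial and some motor neuron markers also rose. SLIT1 and EPHA5 had already been higher on day 8 than on day 4. Of 4 floor plate markers, 3 exceeded 1 CPM on both days, and they summed to 1411 to 1877 CPM on day 14, against 381 to 437 CPM on day 8, most of it SPON1, which also stands in the list of other ligands used here. SHH stood at 159 CPM on day 14, against 16.5 CPM on day 8, and FOXA2 at 30.4 CPM on day 14, against 3.41 CPM on day 8, while FERD3L stayed under 1 CPM. Astroglial markers summed to 249 to 292 CPM on day 14, against 84.2 to 86.7 CPM on day 8, of which GFAP and AQP4 were under 1 CPM on both days. The neural crest markers SOX10, FOXD3 and TFAP2B were under 1 CPM on both days. Motor neuron markers summed to 139.8 to 150.2 CPM on day 14, against 115 to 132 CPM on day 8. SLC5A7 had 41.6 CPM, against 7.21 CPM, and CHAT, SLC18A3 and PRPH also had higher means, while MNX1, ISL1, ISL2 and LHX3 had lower ones. Neuronal markers summed to 2613 to 3156 CPM on day 14, against 3806 to 4234 CPM on day 8. Progenitor markers summed to 1806 to 1883 CPM, against 3062 to 3204 CPM. The part of RNA of any of these cell types in these changes was not tested. Comparing day 15 with day 9 in place of day 14 with day 8, 24 guidance genes were higher and 17 lower (background 22% and 25%), and day 12 with day 8 gave 21 higher and 14 lower (background 17.6% and 18.2%).

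**Figure D5:**
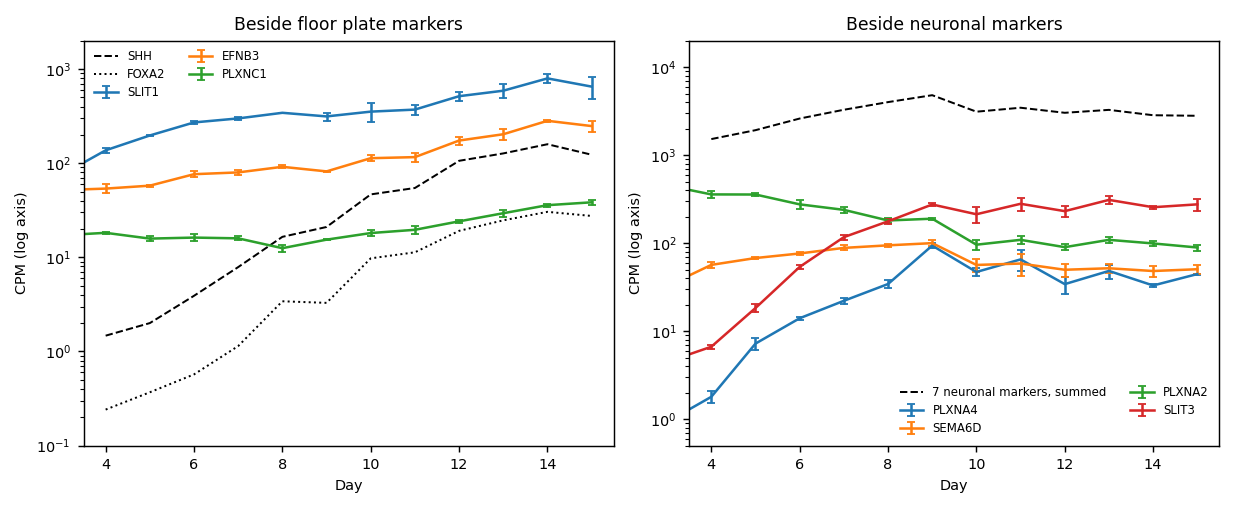
Mean CPM by day from day 4 on, on log axes, with SD bars over 3 libraries for guidance genes and black lines for means of marker genes: left, SLIT1, EFNB3 and PLXNC1 beside SHH and FOXA2; right, PLXNA4, SEMA6D, PLXNA2 and SLIT3 beside the sum of 7 neuronal markers. SLIT1 and EFNB3 are highest on day 14, as is SHH, and PLXNA4 has its highest mean on day 9, as has the neuronal sum.

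Medium was replaced every other day, per the labels, and odd late days (11, 13 and 15) were set against even ones (10, 12 and 14) with weights that give both sides the same mean day. Of the 64 guidance genes, 5 were called higher and 3 lower on odd days, against 1.63% and 3.05% of all genes (either direction 4.67%), and in each of the 64 the 9 libraries of odd days overlapped the 9 of even days, where 0.206% of all genes tested had no overlap. PLXNA4 differed most, with 38.2 to 85.3 CPM on odd days with a median of 51.7 CPM, against 25.6 to 50.1 CPM on even days with a median of 38 CPM (log2 change 0.61 ± 0.091, adjusted p = 7.2e-05). Its daily means on days 9 to 15 were 93.8, 47, 65.3, 34.2, 48.3, 33 and 44.5 CPM, so days 9, 11, 13 and 15 each stood above the even days next to them. SLIT3 had 228 to 341 CPM on odd days with a median of 295 CPM, against 168 to 265 CPM on even days with a median of 247 CPM (log2 change 0.31 ± 0.078, adjusted p = 0.018). ROBO1 had 139 to 188 CPM on odd days with a median of 153 CPM, against 123 to 147 CPM on even days with a median of 133 CPM (log2 change 0.23 ± 0.046, adjusted p = 0.0016).

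EPHA7 and PLXNA2 were also higher on odd days by this contrast, with adjusted p-values of 0.037 and 0.046. SEMA3E had 0.662 to 1.18 CPM on odd days with a median of 0.904 CPM, against 0.722 to 2.04 CPM on even days with a median of 1.41 CPM (log2 change -0.57 ± 0.17, adjusted p = 0.045). SEMA3F and EFNB3 were lower too, with adjusted p-values of 0.042 and 0.016, although EFNB3, which climbed steeply over these days, had unweighted means of 189 CPM on odd days and 189.5 CPM on even days. Without days 10 and 15, 3 genes were called, PLXNA4, PLXNA2 and ROBO1, all higher (background 0.731% higher and 1.09% lower). With only the days compared in the fit, 2 were called, both higher, and leaving out 1 replicate number left 1 or 2 higher and at most 1 lower. Calls among all genes went from 908 to 183 with only the days compared, and to 138 to 356 without a replicate number. Which day the medium was changed on is not given for each library, so whether these values follow the medium was not tested.

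The wider guidance machinery was read from a list of 80 other genes, of which 79 were tested. It holds 14 netrins and other ligands, 25 adhesion molecules and co-receptors, 33 intracellular effectors and 8 genes of chemokine and GDNF signalling. Of the 79, 39 were higher and 28 lower on day 1 than on day 0 (background 30.1% and 31.6%). Day 4 had 42 higher and 19 lower than day 1 (background 24.4% and 22.8%), and day 8 had 44 and 15 over day 4 (background 27.1% and 26.1%). NTN1, the netrin that DCC binds, had 119 ± 3.96 CPM on day 4, against 22.6 ± 0.643 CPM on day 1 (log2 change 2.4 ± 0.15, adjusted p = 3e-15). L1CAM, an adhesion molecule of growing axons, had 48.2 ± 2.46 CPM on day 4, against 3.24 ± 0.286 CPM on day 1 (log2 change 3.89 ± 0.21, adjusted p = 1.7e-16). CNTN2, a contactin of commissural axons, had 771 ± 56.6 CPM on day 8, against 32 ± 1.19 CPM on day 4 (log2 change 4.59 ± 0.21, adjusted p = 5.9e-18). All 3 rose in the period in which DCC rose.

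Other genes of the list named by size of change were GFRA1, the GDNF co-receptor, with 254 ± 5.76 CPM on day 1, against 5.11 ± 1.16 CPM on day 0 (log2 change 5.63 ± 0.086, adjusted p = 1.2e-36), and GAP43, a growth cone protein, with 7.72 ± 0.22 CPM on day 1, against 51.1 ± 4.02 CPM on day 0 (log2 change -2.73 ± 0.14, adjusted p = 6.5e-18). The neuronal marker STMN2 stood at 6.33 CPM on day 1, against 249.9 CPM on day 0, but it stood apart among the 7 neuronal markers. TUBB3 had 306 CPM on day 1, against 234 CPM on day 0, and DCX had 48.7 CPM on day 1, against 13.9 CPM on day 0. ELAVL3, ELAVL4 and SYT4 also had higher means on day 1, and SNAP25 had 3.19 CPM on day 1, against 3.2 CPM on day 0. The part of neuronal RNA in the day 1 changes was not tested. CHL1, a relative of L1CAM, had 95.6 ± 4.26 CPM on day 8, against 13.5 ± 1.12 CPM on day 4 (log2 change 2.83 ± 0.11, adjusted p = 1e-21). From day 9 to day 10, 22 of the 79 were higher and 23 lower (background 15.9% and 13.7%), and from day 8 to day 14, 26 and 24 (background 21.6% each way). CXCL12, a chemokine, had 28.5 ± 9.22 CPM on day 10, against 7.57 ± 0.3 CPM on day 9 (log2 change 1.91 ± 0.31, adjusted p = 1.8e-05), and CNTN2 had 351 ± 104 CPM on day 10, against 581 ± 27.3 CPM on day 9 (log2 change -0.73 ± 0.18, adjusted p = 0.0022). On day 14 CNTN2 was lower still, with 216 ± 22.3 CPM on day 14, against 771 ± 56.6 CPM on day 8 (log2 change -1.84 ± 0.18, adjusted p = 7.5e-10), while CNTN4 had 74.2 ± 8.21 CPM on day 14, against 14.3 ± 0.407 CPM on day 8 (log2 change 2.38 ± 0.088, adjusted p = 7.4e-23). On odd late days 4 of the 79 were called lower and 1 higher (background 3.05% and 1.63%). DRAXIN, a repellent that binds DCC, was among the 4 lower (log2 change -0.29 ± 0.053, adjusted p = 0.00088), and the teneurin TENM2 was the 1 higher.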

How the data were processed

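The submitters' processing notes name bcl2fastq 2.20.0 for demultiplexing and RSEM for quantification. In the deposited expected counts, the authors' RSEM run divided reads that fit several genes between them, so that 92.5% of the values are whole numbers. They were rounded here. The authors also deposited TPM, scaled by RSEM for gene length and library total. No source used here names the aligner, the annotation or the strand setting, so genes that overlap others are uncertain. Symbols and positions come from GENCODE release 29 (GRCh38).

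Counts from all 45 libraries were fitted in 1 model with day as a factor (edgeR 4.0.16 in R 4.3.3, TMM, default filter by day, robust quasi-likelihood fit, F test, Benjamini-Hochberg adjustment over 19437 genes, 30 residual degrees of freedom), because 3 libraries against 3 cannot give an exact permutation p under 0.1. The median of the dispersion trend was a biological coefficient of variation of 8.62%. Intervals and lower bounds, where given, cover counting error only.

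The genes of the set, the other lists, the days compared and the tests were chosen with earlier results of these data known. In each comparison, values per library are given for up to 6 members higher and 6 lower, those called with a mean of at least 1 CPM and no overlap of libraries, by largest change, and of the other pathway genes up to 4 each way could be named. Any other gene named was chosen after its values were seen. The steps were tested on data simulated from day 14 against day 8, where 96 of 100 genes changed 2-fold and 99 of 100 changed 4-fold were recovered among 19247 genes tested. Of the unchanged genes, 5 were called. The changed genes were drawn from those with at least 1 CPM on day 8, so genes under that level were not covered. Counts were simulated from the fitted model itself, which favours recovery. Alternatives were DESeq2 1.42.0, its size factors, no filter (37282 genes), at least 2-fold change, a replicate block, fewer days, each replicate number left out, and limma 3.58.1 on log2(TPM + 1) and log2(TPM + 0.1) for 18075 genes with at least 1 TPM in 3 libraries. No 2 libraries held identical values. Mouse samples were not analysed here, and a few marker genes and 1 motif are not reported here.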

Additional observations from a re-analysis of the deposited data

How the results depend on the processing

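Of 147 member counts recomputed under alternatives, 119 stayed within 1.5 times the main count, and of 624 values of named genes 619 kept direction and call, 5 lost the call and 0 changed sign. The count of genes that differed over the 15 days was 63 or 64 under every alternative run. Fewer genes can pass with a change of at least 2-fold. Day 1 then had 17 genes higher and 17 lower than day 0 (background 10.6% and 10.4%). Day 4 had 11 higher and 5 lower than day 1 (background 7.56% and 6.04%), and day 8 had 20 and 2 over day 4 (background 10% and 3.43%). Day 10 had 4 higher and 0 lower than day 9 (background 3.95% and 1.14%), and day 14 had 10 and 4 over day 8 (background 6.61% and 3.29%). Odd late days had 0 higher and 0 lower than even ones, where 4 and 8 of all 19437 genes were. For day 10 against day 9, limma on log2(TPM + 1) and on log2(TPM + 0.1) called 11 higher, against 18 with edgeR. Leaving out each replicate number gave 9 to 16 higher, the lowest without replicate 1. Higher calls among all genes were fewer too. They were 2340 and 2241 of 18075 with limma and 1504 of 19503 without replicate 1, against 3100 of 19437 in the main fit. The cause was not tested. Odd against even days depended most on the setting. Against 5 higher and 3 lower, only the days compared gave 2 and 0, limma on log2(TPM + 0.1) gave 3 and 1, limma on log2(TPM + 1) gave 1 lower, no filter on low counts gave 0 lower, and without days 10 and 15 the counts were 3 and 0. Leaving out a replicate number gave 1 to 2 higher and 0 to 1 lower, with fewer samples. Among all genes, 908 were called in the main fit, 183 with only the days compared and 138 to 356 without a replicate number. Without days 10 and 15, 353 were called, and without the filter 609 of 37282. With limma, 397 of 18075 were called on log2(TPM + 0.1) and 482 on log2(TPM + 1). PLXNA4 on day 1 (limma on log2(TPM + 1), adjusted p = 0.063), SEMA3G on day 4 (adjusted p = 0.075 and 0.11 with the 2 pseudocounts) and PLXNB3 on day 10 (0.074 and 0.16) lost their calls.

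Same-numbered libraries of different days showed no common deviation in the median (correlation 0.001, over 0.1 in 88 of 315 pairs, lowest -0.514). Whether the numbers pair samples of some days cannot be told from this median, and the labels do not say. With the replicate number as a block, 64 genes differed over the 15 days, odd days had 4 higher and 2 lower, day 10 had 18 higher and 15 lower, and the other counts were as without the block. Of all 19437 genes, 17753 then differed over the 15 days. On odd days 325 were higher and 633 lower, and on day 10 there were 3104 higher and 2672 lower. Genes near 0 reads, such as ROBO4, EPHA1 after day 2 and EPHA5 before day 4, were too few in reads for a fold change to be read from them.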
